A study of Mus musculus with 10 samples.

Results

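The 9 genes described here are genes of the ganglionic eminences and of the GABAergic lineage. They were taken by name as the rows for Dlx1, Dlx2, Dlx5, Dlx6, Gsx2, Nkx2-1, Lhx6, Gad1 and Gad2, so 9 of 21225 probe sets, and each had exactly 1 probe set. Wild-type mouse forebrains of embryonic day 15.5 were the source of RNA, which was hybridized to Affymetrix Mouse Gene 1.0 ST arrays, with 5 embryos of dams eating powdered chow (Bioserv F3197, animals 87, 88, 108, 111 and 115) and 5 embryos of dams eating pelleted chow (Teklad 2918, animals 05, 07, 09, 11 and 15). Each embryo came from its own litter. All dams were C57Bl/6J females mated with Ts1Cje males, the sires of a mouse line that models Down syndrome, and breeder pairs received their diet from first mating. The embryos of both groups therefore shared the same cross, and only those without the Ts1Cje chromosome were used.

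The ganglionic eminences are swellings of the ventral telencephalon, and their progenitors give rise to the projection neurons of the striatum and to the GABAergic interneurons that migrate into the cortex. The homeodomain transcription factors Gsx2 and Nkx2-1 set the identity of lateral and medial eminence progenitors. The Dlx factors act after them, and Lhx6 marks medial eminence cells that have stopped dividing. Gad1 and Gad2 encode the glutamate decarboxylases that make GABA from glutamate. Gad1 supplies most of the GABA of the cell body, and the Gad2 enzyme is tied to synaptic vesicles.

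Values are log2 expression values as deposited, which have no true zero, and a difference is powdered minus pelleted chow. A gene was called where its limma p, adjusted over the whole table, was under 0.05. The lower quartile of an array lay between 6.33 and 6.53, arrays of 1 diet correlated with each other at 0.992 to 0.995 on average, and pelleted chow replicate 05 stood apart on the second principal component (24.1, against -10.6 to 12.5 in the other arrays). Emx2, a transcription factor of the dorsal telencephalon, lay at 8.12 to 8.35 on powdered chow and at 8.12 to 8.61 on pelleted chow. Each group's animal numbers form a block of their own, so that diet and any difference in preparation between the blocks cannot be told apart. In whole forebrain RNA, fewer cells of a type and less RNA per cell cannot be told apart either. Nor can the part of the forebrain that gave a gene's signal.

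Dlx6, Dlx5, Gad2 and Dlx1 were higher on powdered chow, Gad1 was lower, and Dlx2, Gsx2, Nkx2-1 and Lhx6 were not called. Dlx6 changed most, by 0.71 on the log2 scale (1.63-fold). The 2 glutamate decarboxylases moved in opposite directions, by -0.37 for Gad1 and 0.31 for Gad2. Of the 9 members 5 were called, against a background of 43.1% of all probe sets. Of the 9, 4 were higher, against 21.2% of all probe sets, and 1 was lower, against 21.8%. These shares are given as a description of 9 chosen genes, with no test. Dim probe sets, which were called less often, are part of these backgrounds here and below. In a fit on the probe sets above the median of the table alone, 7080 of 10612 were called, 3553 higher and 3527 lower. That fit left out Gsx2 and called 5 members higher and 1 lower.

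The promoter windows of the decarboxylase genes are shown because these genes were the members that moved apart. Both lie on chromosome 2 on the plus strand and run from 250 bases before to 50 bases after the gene's start (RefSeq, build GRCm38.p6). Gad1 is at chr2:70561879-70562178 and Gad2 at chr2:22622077-22622376, each printed 5′ to 3′ with every CG dinucleotide in capitals.
Gad1: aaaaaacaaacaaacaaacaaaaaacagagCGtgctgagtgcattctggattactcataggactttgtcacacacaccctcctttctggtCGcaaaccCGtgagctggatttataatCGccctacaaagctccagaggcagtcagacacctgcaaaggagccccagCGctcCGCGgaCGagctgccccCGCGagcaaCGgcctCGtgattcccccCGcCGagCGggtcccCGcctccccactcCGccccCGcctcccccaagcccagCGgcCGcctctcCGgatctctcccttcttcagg
Gad2: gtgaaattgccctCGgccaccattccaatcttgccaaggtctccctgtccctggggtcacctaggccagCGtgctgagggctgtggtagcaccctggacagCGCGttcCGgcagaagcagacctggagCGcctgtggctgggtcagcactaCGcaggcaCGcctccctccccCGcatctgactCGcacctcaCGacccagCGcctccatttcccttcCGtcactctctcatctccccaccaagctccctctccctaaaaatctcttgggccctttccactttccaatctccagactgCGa
The Gad1 window holds 21 CG dinucleotides at 60% G and C, and the Gad2 window holds 14 at 61.3%, where the median of 32851 windows of 300 bases was 7. Windows were found for 7 of the 9 members, 9 windows in all with 11 to 29 CG dinucleotides each. The homeodomain core TAATT, searched on both strands (AATTA on the other), occurred in 2 of these 9 windows, 1 of Gsx2 and 1 of the 3 of Lhx6, against 27% of all windows. Neither decarboxylase window held it.

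Dlx5 and Dlx6 are neighbours on chromosome 6 and encode transcription factors of migrating and differentiating eminence cells. Dlx6 (Entrez gene 13396) had 8.98, 9.07, 8.84, 8.95 and 9.11 in powdered chow replicates 87, 88, 108, 111 and 115, against 8.31, 8.27, 8.20, 8.44 and 8.19 in pelleted chow replicates 05, 07, 09, 11 and 15. The lowest powdered chow array lay above the highest pelleted chow array. The difference was 0.71 (SE 0.07, 95% confidence interval 0.56 to 0.86, limma adjusted p = 3.11e-06). Dlx6 was the only member past the limits that the methods set for differential expression (a fold change over 1.5, with the raw p below 0.001 and the adjusted one below 0.01), which 8.27% of all probe sets passed. That is 1 of 9 members in the higher direction, against 4.84% of all probe sets, and no member in the lower direction, against 3.43%.

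Dlx5 (Entrez gene 13395) had 9.63, 9.79, 9.69, 9.23 and 9.44 on powdered chow, against 9.24, 9.23, 9.03, 9.45 and 9.20 on pelleted chow, in the same order of replicates. The groups overlapped, since powdered chow replicate 111 fell among the pelleted chow arrays and pelleted chow replicate 11 reached the level of powdered chow replicate 115. Dlx5 was higher by 0.32 (SE 0.10, 95% confidence interval 0.10 to 0.55, limma adjusted p = 0.0225). This call was lost without pelleted chow replicate 09 (limma adjusted p = 0.061), powdered chow replicate 87 (0.0509) or powdered chow replicate 88 (0.0595).

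Dlx1 and Dlx2 are neighbours on chromosome 2, and in mice the interneurons fail to migrate into the cortex when both are lost. Dlx1 (Entrez gene 13390) had 11.35, 11.33, 11.27, 11.22 and 11.33 on powdered chow, against 11.27, 11.14, 10.89, 11.01 and 10.99 on pelleted chow. Only pelleted chow replicate 05 reached into the powdered chow range. Dlx1 was higher by 0.24 (SE 0.07, 95% confidence interval 0.09 to 0.39, limma adjusted p = 0.0144).

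Dlx2 (Entrez gene 13392) had 10.14, 10.28, 10.02, 9.81 and 9.86 on powdered chow, against 9.98, 10.00, 9.54, 10.13 and 9.73 on pelleted chow. The groups overlapped widely, and the spread within a diet (SD 0.20 on powdered and 0.24 on pelleted chow) was larger than the difference of 0.15 (95% confidence interval -0.10 to 0.40, limma adjusted p = 0.332). Dlx1as, the antisense transcript of the Dlx1 locus, has its own probe set and was higher by 0.41 (limma adjusted p = 0.00777). Whether its probes overlap those of Dlx1 was not tested. Of the other Dlx genes, Dlx3 was lower, with a difference of -0.28 (limma adjusted p = 0.025), and Dlx4 had a difference of -0.15 and was not called. Of these genes 0 were lower without pelleted chow replicate 09 or powdered chow replicate 87, 111 or 115, and 2 without pelleted chow replicate 07 or powdered chow replicate 88.

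**Figure D1:**
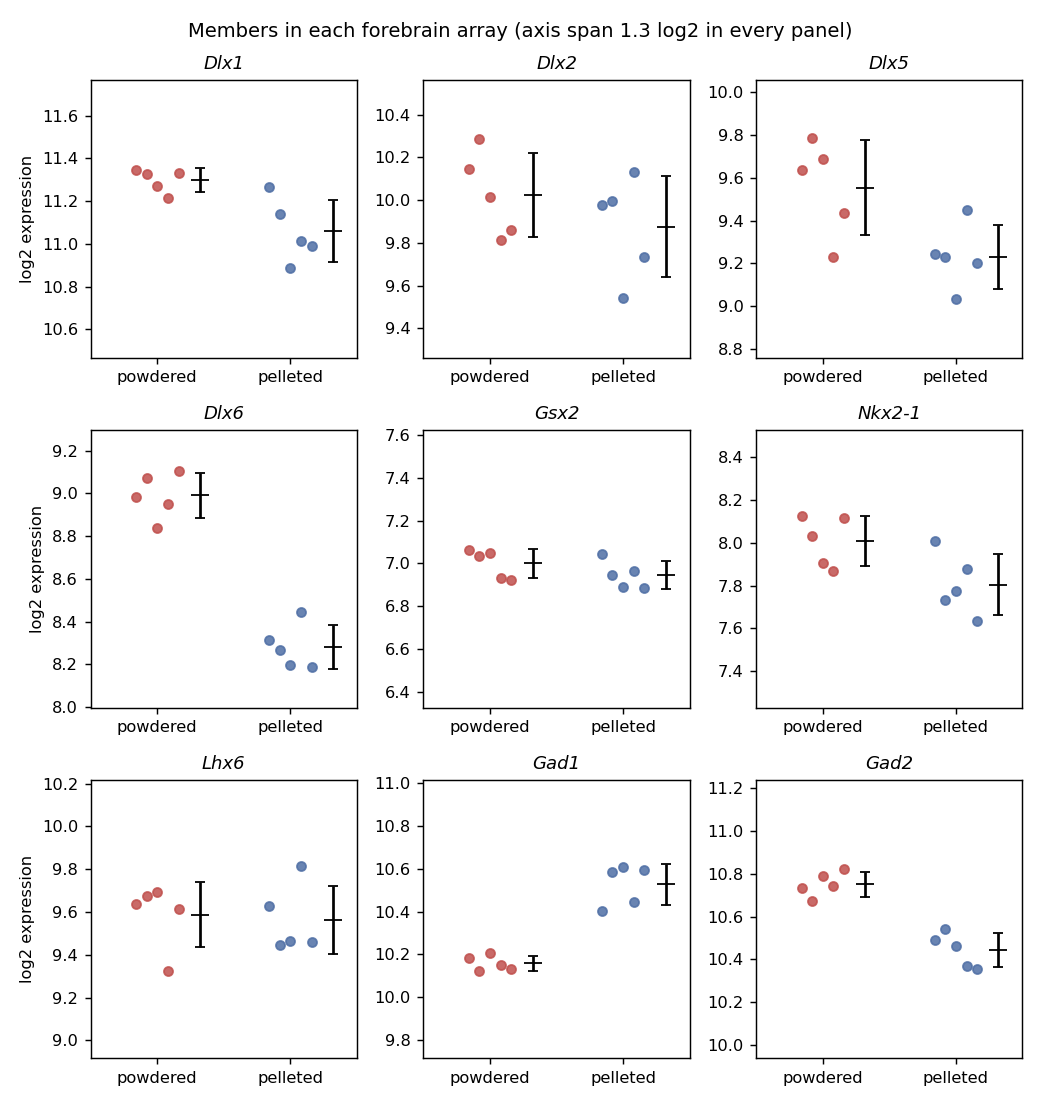
Log2 expression of the 9 members in each array (vertical axis, 1.3 log2 units in every panel), with 5 powdered chow arrays at the left and 5 pelleted chow arrays at the right. The black mark is the group mean with 1 SD, and the groups lie apart for Dlx6, Gad1 and Gad2.

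Among the progenitor factors, Gsx2 (Entrez gene 14843, on chromosome 5) sets the fate of lateral eminence progenitors. Its values were 7.06, 7.03, 7.05, 6.93 and 6.92 on powdered chow, against 7.04, 6.94, 6.89, 6.96 and 6.88 on pelleted chow. The groups overlapped over most of their range, and the difference was 0.05 (95% confidence interval -0.06 to 0.17, limma adjusted p = 0.456). These levels lie nearest of all members to the lower quartile of the arrays.

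Nkx2-1 (Entrez gene 21869, on chromosome 12), the selector gene of the medial eminence, had 8.12, 8.03, 7.91, 7.87 and 8.11 on powdered chow, against 8.01, 7.73, 7.77, 7.88 and 7.63 on pelleted chow. Pelleted chow replicates 05 and 11 reached into the powdered chow range. The difference of 0.20 lay on the edge of the threshold (95% confidence interval 0.04 to 0.37, limma adjusted p = 0.0501). It passed without pelleted chow replicate 05 (limma adjusted p = 0.0131), powdered chow replicate 111 (0.0327) or powdered chow replicate 108 (0.038).

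Lhx6 (Entrez gene 16874, on chromosome 2), which Nkx2-1 switches on and which interneurons of the medial eminence need to reach their place in the cortex, had 9.64, 9.68, 9.69, 9.32 and 9.61 on powdered chow, against 9.63, 9.45, 9.47, 9.81 and 9.46 on pelleted chow. The highest array of all was pelleted chow replicate 11 and the lowest was powdered chow replicate 111. The difference was 0.02 (95% confidence interval -0.17 to 0.22, limma adjusted p = 0.849).

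Of the decarboxylase genes, 1 was lower and 1 higher. Gad1 (Entrez gene 14415) had 10.18, 10.12, 10.21, 10.15 and 10.13 on powdered chow, against 10.40, 10.59, 10.61, 10.44 and 10.59 on pelleted chow. Every powdered chow array lay below every pelleted chow array, and the difference was -0.37 (SE 0.06, 95% confidence interval -0.49 to -0.25, limma adjusted p = 1.50e-04).

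Gad2 (Entrez gene 14417) had 10.73, 10.67, 10.79, 10.74 and 10.82 on powdered chow, against 10.49, 10.54, 10.46, 10.37 and 10.36 on pelleted chow. Every powdered chow array lay above every pelleted chow array, and the difference was 0.31 (SE 0.06, 95% confidence interval 0.19 to 0.43, limma adjusted p = 5.94e-04). The diets did not overlap for 3 of the 9 members, against 32.6% of all probe sets. Tested against a fold change of 1.2 in place of no change, limma called Dlx6 but none of Dlx1, Dlx5, Gad1 and Gad2.

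Whether members of a pair moved unequally was tested on their difference within each array, which does not compare the levels of 2 probe sets. Gad1 minus Gad2 was -0.55, -0.55, -0.58, -0.59 and -0.69 in powdered chow replicates 87, 88, 108, 111 and 115, against -0.09, 0.04, 0.15, 0.07 and 0.24 in pelleted chow replicates 05, 07, 09, 11 and 15. The mean was -0.59 ± 0.06 on powdered chow and 0.08 ± 0.12 on pelleted chow (SD, n = 5 each), a shift of -0.68 or 1.60-fold (exact two-sided permutation p = 0.00794, adjusted p = 0.0238 over 3 pairs). No smaller p can be had with 5 arrays in each group. The groups had to be separate here, since every powdered chow array was lower for Gad1 and higher for Gad2. This p therefore repeats the 2 single-gene results and adds no further evidence. The ratio of Gad1 to Gad2 signal was lower on powdered chow in all 5 arrays.

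Dlx5 minus Dlx6 was 0.65, 0.71, 0.85, 0.28 and 0.33 on powdered chow, against 0.93, 0.96, 0.84, 1.01 and 1.02 on pelleted chow. The groups overlapped only at powdered chow replicate 108 and pelleted chow replicate 09, and the shift of -0.39 passed the test (exact two-sided permutation p = 0.0159, adjusted p = 0.0238). Dlx6 thus rose more than Dlx5. For Dlx1 minus Dlx2 the mean was 1.27 ± 0.17 on powdered chow and 1.18 ± 0.18 on pelleted chow (SD, n = 5 each), and the shift of 0.09 was within the spread (exact two-sided permutation p = 0.437).

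**Figure D2:**
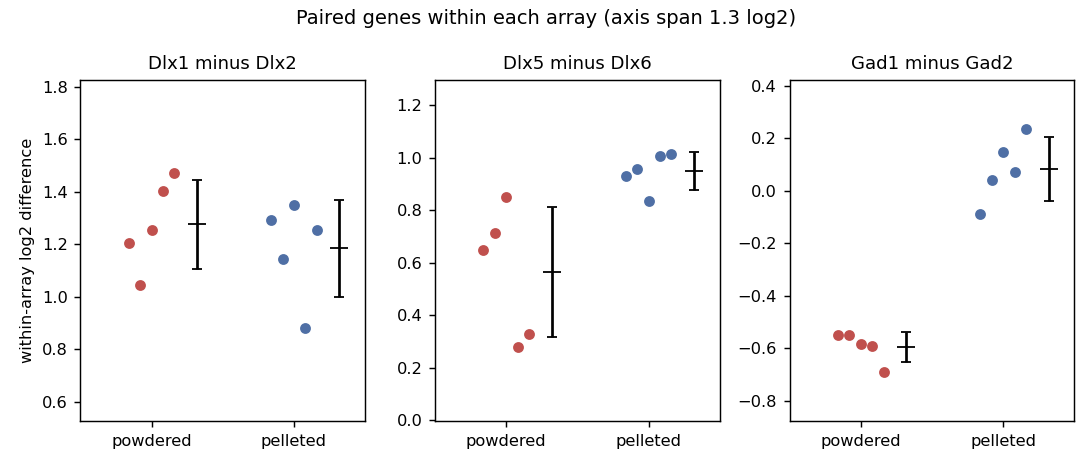
Difference in log2 expression between the 2 genes of a pair within each array (vertical axis, 1.3 log2 units in every panel), with powdered chow left of pelleted chow. The black mark is the group mean with 1 SD, and Gad1 minus Gad2 averaged -0.59 on powdered chow and 0.08 on pelleted chow.

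The genes that flank the members were read from the RefSeq gene order of GRCm38.p6, to see how the probe sets beside them behaved. Sem1, which encodes a small subunit of the proteasome and flanks the Dlx5 and Dlx6 pair, was higher by 0.95 (9.86 to 10.03 on powdered chow, against 8.90 to 9.11 on pelleted chow, limma adjusted p = 1.06e-07). Sdhaf3, the flanking gene on the other side, had a difference of -0.26 (limma adjusted p = 0.00373). Beside the Dlx1 and Dlx2 pair, Metap1d was higher by 0.40 (limma adjusted p = 0.00111) and Itga6 was not called at -0.14. Beside Gad1, which was lower, Erich2 was higher by 0.39 (limma adjusted p = 0.0012) and Gorasp2 was not called at 0.01. Myo3a (0.02) and Apbb1ip (0.09) beside Gad2 were not called. Beside Gsx2, which was not called, Chic2 had a difference of -0.70 (limma adjusted p = 1.60e-05) and Pdgfra was higher by 0.27. Rbm18, beside Lhx6, was higher by 0.35 (limma adjusted p = 4.70e-04), while Morn5 on its other side (0.04) and both flanking genes of Nkx2-1, Mbip (0.20) and Nkx2-9 (-0.27), were not called. Called flanking genes lay beside called and uncalled members, in either direction, where 43.1% of all probe sets were called. Whether members and flanking genes changed together was not tested. Myo3a, Apbb1ip and Morn5 averaged 4.60 to 6.00, under the lower quartile of every array (6.33 to 6.53), so their missing calls say little. Erich2 was also dim, at a mean of 6.53 on powdered and 6.14 on pelleted chow.

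With both diets pooled, the 7 transcription factors varied together from embryo to embryo around their diet means. After each diet's mean was subtracted, all 21 pairs among them correlated positively over the 10 arrays, with a median Pearson r of 0.58 and a range of 0.09 to 0.87. Dlx2 and Dlx5 (0.87) and Dlx5 and Lhx6 (0.85) were the closest pairs. Gad1 correlated negatively with each of the 7 factors (median r -0.52), Gad2 positively with 3 and negatively with 4 of them, and Gad1 and Gad2 with each other at 0.11. These values pool both diets over 10 arrays whose points share the array, and carry no test. Gad1 varied more on pelleted chow (SD 0.10) than on powdered chow (SD 0.04), so the pelleted chow arrays weigh more in its r. Whether these relations held in each diet alone, or were closer than among other probe sets, was not tested.

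A few embryos stood at the ends. Powdered chow replicate 111 was the lowest of its diet for Dlx1, Dlx2, Dlx5, Nkx2-1 and Lhx6. Pelleted chow replicate 11 was the highest of its diet for Dlx2, Dlx5, Dlx6 and Lhx6, and pelleted chow replicate 09 the lowest for Dlx1, Dlx2 and Dlx5. With pelleted chow replicate 05 and powdered chow replicate 111 left out together, an alternative chosen after seeing the data, 5 members were called higher and 1 lower.

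**Figure D3:**
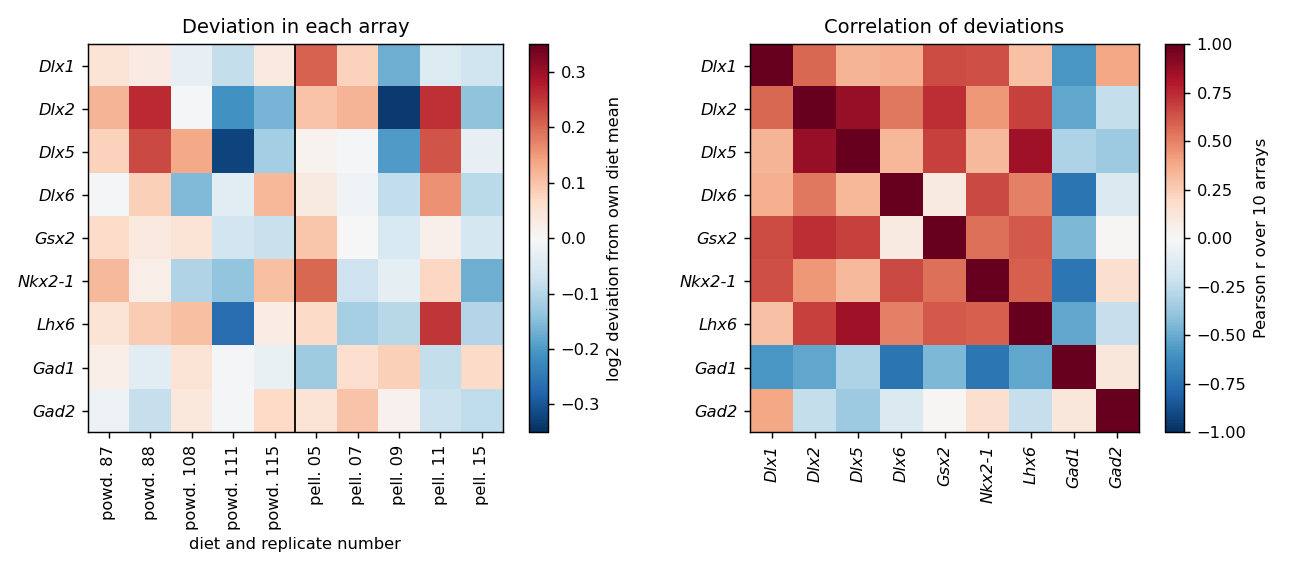
Left, deviation of each member from its own diet mean in each array (colour, log2 units, powdered chow arrays left of the black line and pelleted chow arrays right of it). Right, Pearson r of those deviations between members over 10 arrays, with all 21 pairs among the 7 transcription factors above 0.

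Outside the members, the 5 probe sets whose deviations followed the mean deviation of the 9 members most closely over the 10 arrays were Masp1 (r = 0.96), Zswim4 (0.95), Sod3 (0.95), Siah3 (0.94) and Adgrg1 (0.94). Masp1 encodes a serine protease of the complement system, Sod3 the extracellular superoxide dismutase and Adgrg1 an adhesion receptor. Their diet differences did not run one way. Zswim4 was higher by 0.51 and Masp1 by 0.23, Adgrg1 had a difference of -0.63 (limma adjusted p = 2.92e-06), and Siah3 (0.17) and Sod3 (-0.10) were not called.

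Of 15 genes of GABA transport, breakdown and reception, among them carriers of chloride and of the precursor glutamine, 7 were lower and 4 higher on powdered chow (46.7% and 26.7%, against 21.8% and 21.2% of all probe sets), with a median difference of -0.16, against -0.02 over all probe sets. Gabra3, an alpha subunit of the GABA-A receptor, lay at 10.06 to 10.23 on powdered chow, against 10.62 to 11.16 on pelleted chow, a difference of -0.80 (limma adjusted p = 9.18e-06). The ranges did not overlap. The GABA transporters Slc6a13 and Slc6a11 differed by -0.62 and -0.61. Abat, the enzyme that breaks GABA down, also fell, by 0.39 on the log2 scale. Slc32a1, which loads GABA into vesicles, rose by 0.20 (limma adjusted p = 0.0107), with 8.82 to 8.96 on powdered chow, against 8.57 to 8.79 on pelleted chow, as did the receptor subunit Gabra2 (0.37), the chloride importer Slc12a2 (0.22) and the glutamine transporter Slc38a1 (0.14). The count of higher genes was 2 without powdered chow replicate 111 or 115, and 1 without pelleted chow replicates 05 and 07 together. In the fit on probe sets above the median, 7 were lower and 4 higher, where 3527 and 3553 of 10612 probe sets were.

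**Figure D4:**
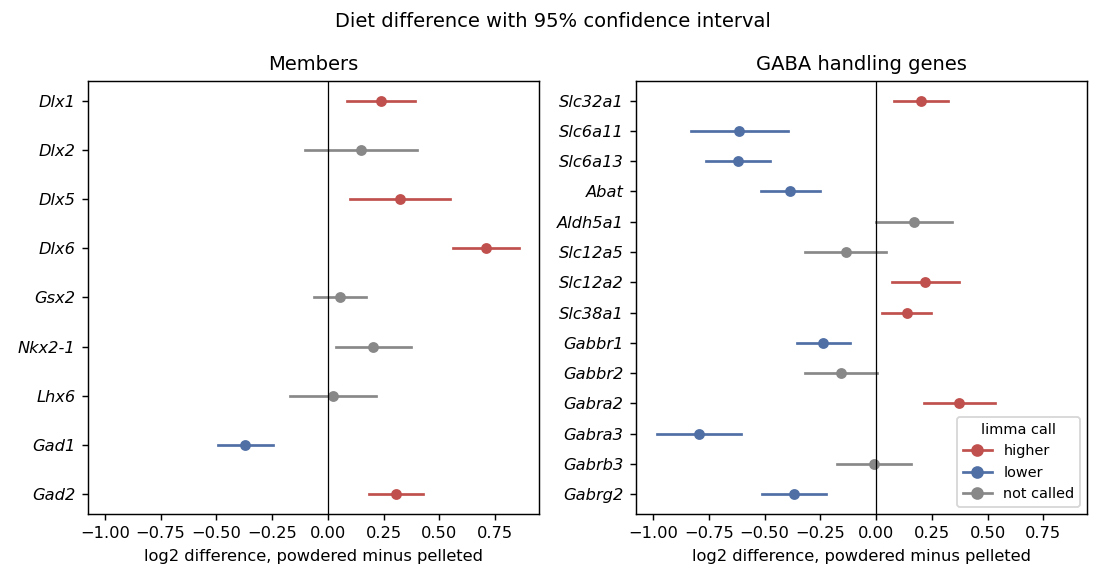
Log2 difference, powdered minus pelleted chow (horizontal axis), of the 9 members at the left and of GABA handling genes at the right. Points are limma estimates, lines their 95% confidence intervals, and colours the call, with Gad1 and Gabra3 left of 0 and Gad2 and Slc32a1 right of it.

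The other genes of the eminences moved in both directions. Over the 96 genes of 7 related lists 28 were higher and 29 lower, which is 29.2% and 30.2%, against 21.2% and 21.8% of all probe sets, with a median difference of -0.02. The counts of the single lists read against the same shares of all probe sets, dim ones included. In the fit on probe sets above the median, 28 related genes were higher and 25 lower, where 3553 and 3527 of 10612 probe sets were. Of 15 ventral progenitor genes 4 were higher and 4 lower. Among those that rose were Six3 (0.40), the growth factor Fgf15 (0.28) and the Notch ligand Dll1 (0.15). Olig1 (-0.61), Otx2 (-0.45), the hedgehog receptor Ptch1 (-0.28) and Nkx6-2 (-0.23) fell. The same probe sets of Otx2 and Six3 are counted again below, as a choroid plexus and a forebrain marker. The count of lower ventral progenitor genes was 2 without pelleted chow replicate 07, pelleted chow replicate 09 or powdered chow replicate 88.

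In the medial eminence lineage, 5 of 16 genes were higher and 4 lower. Satb1 (0.65, limma adjusted p = 9.83e-07) and Sox6 (0.51), which act in interneurons downstream of Lhx6 in mice, led the rises, followed by Nxph2 (0.30), Zeb2 (0.25) and Nos1 (0.17). The neuropeptide gene Npy (-0.77), Maf (-0.53), Npas1 (-0.50) and Gbx1 (-0.25) fell, and Sst, the other neuropeptide gene of the list, was not called at -0.20. Satb1 lay at 10.74 to 10.87 on powdered chow, against 10.02 to 10.23 on pelleted chow, and Npy lay at 9.69 to 9.87 on powdered chow, against 10.30 to 10.85 on pelleted chow.

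In the caudal eminence lineage, 4 of 10 genes were higher and 2 lower. The nuclear receptors Nr2f1 (0.68, limma adjusted p = 4.24e-06), Nr2f2 (0.47) and Nr2e1 (0.39) rose, as did Npas3 (0.21). The calcium-binding protein gene Calb2 (-0.32) and the serotonin receptor gene Htr3a (-0.25) fell. Prox1 (0.07), Sp8 (-0.03), Vip (-0.12) and Adarb2 (0.15) were not called. Whether other forebrain cells had a part in these differences was not tested. Nr2f1 lay at 10.26 to 10.61 on powdered chow, against 9.65 to 9.86 on pelleted chow.

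Among 20 lateral eminence and striatal genes, 4 were higher and 8 lower. The transcription factors Isl1 (0.46), Meis1 (0.44), Ebf1 (0.36) and Tshz1 (0.24) rose. The largest falls were those of the retinoid receptor Rxrg (-1.15, limma adjusted p = 1.39e-07), the dopamine receptor Drd2 (-0.76), Ppp1r1b (-0.49), which encodes a phosphatase inhibitor of striatal neurons, and the receptor Gpr6 (-0.43). Drd1 and Adora2a, receptors of the direct and the indirect striatal projection neurons, fell by 0.28 and by 0.34 on the log2 scale. Rxrg lay at 8.31 to 8.60 on powdered chow, against 9.42 to 9.75 on pelleted chow, and Drd2 at 8.21 to 8.43 on powdered chow, against 8.89 to 9.38 on pelleted chow.

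Of 17 genes of interneuron migration, 6 were higher and 3 lower. Epha4 and Robo2, guidance receptors, each rose by 0.38, Nrp2, a semaphorin receptor, by 0.32 and Cxcr4, the chemokine receptor of migrating interneurons, by 0.27. The kinase gene Cdk5 (-0.74, limma adjusted p = 4.18e-07), the guidance ligand Slit1 (-0.36) and the semaphorin Sema3f (-0.20) fell. Cdk5 lay at 9.56 to 9.72 on powdered chow, against 10.32 to 10.46 on pelleted chow.

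**Figure D5:**
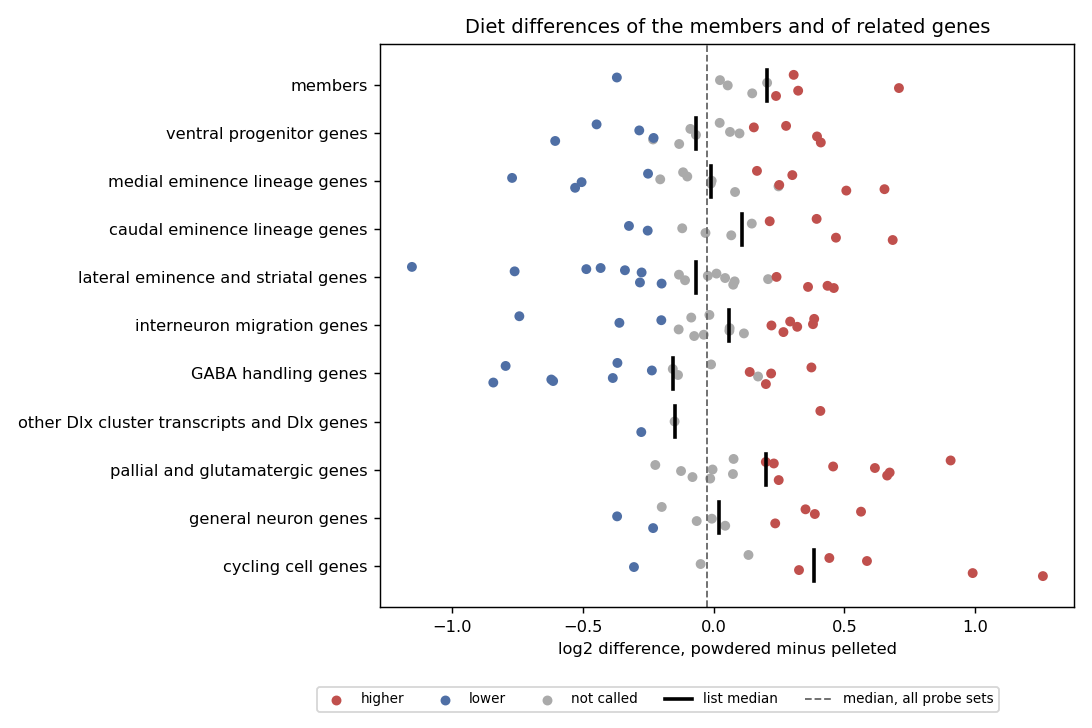
Log2 difference, powdered minus pelleted chow (horizontal axis), of each gene of the members and of 10 lists (rows), coloured by the limma call. Black bars are list medians, and the dashed line is the median of all probe sets, -0.02.

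Genes of other cells also differed between the diets, and their counts read against 21.2% higher and 21.8% lower of all probe sets. Whether they varied with the members was not tested. Of 15 pallial and glutamatergic genes 8 were higher and 0 lower, with a median of 0.20, led by Fezf2 (0.91), Neurog2 (0.67), Eomes (0.66) and Neurod6 (0.62), transcription factors of cortical progenitors and projection neurons. By limma 1 was lower at an unadjusted p under 0.05, the methods' t-test called 0 lower after adjustment, and limma called 1 lower without pelleted chow replicate 05. Of 8 cycling cell genes 5 were higher and 1 lower, with a median of 0.38, and Mki67, a marker of dividing cells, differed by 1.26, Top2a by 0.99, Bub1 by 0.59, Plk1 by 0.44, Ccna2 by 0.33 and Cdk1 by -0.30. Cdk1 was not called without pelleted chow replicate 05, 07 or 15 or powdered chow replicate 87, 88, 108 or 115. Of 10 general neuron genes 4 were higher (Elavl4 0.56, Elavl3 0.39, Gap43 0.35 and Stmn2 0.24) and 2 lower (Syt1 -0.37 and Tubb3 -0.23). The lower count was 1 without pelleted chow replicate 07, 09 or 15 or powdered chow replicate 87, 88, 108 or 115.

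Marker lists of neighbouring tissue were read in the same way. Of 5 forebrain markers 3 were higher (Otx1 0.46, Six3 0.40 and Lhx2 0.20), while Emx2 (-0.08) was not called. Of 10 midbrain and hindbrain markers 3 were lower (En2 -0.77, En1 -0.57 and Hoxb3 -0.15), with a mean level of 6.84 to 7.05 on powdered chow and 6.90 to 7.32 on pelleted chow. Hypothalamus and thalamus markers averaged 8.14 to 8.26 on powdered chow and 8.12 to 8.19 on pelleted chow, with Fezf1 (0.28) and Tcf7l2 (0.23) higher and Gbx2 (-0.31) lower among 10. Nkx2-1 is also expressed in the hypothalamus, so its signal is not that of the medial eminence alone. The part of these cells in the members' differences was not tested.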

How the data were processed

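Forebrain RNA of 10 embryos was measured, 1 array each. The authors ran RMA (robust multichip average) with version 15 of the custom probe set definition of MBNI, and deposited log2 values for 21225 probe sets, each of 1 Entrez gene. RMA quantile-normalizes the probes before they are summarized, so a difference is relative to the rest of the array, and the summarized arrays still differ a little in their quartiles. No detection calls are in the table. Of the probe sets 20768 were given a symbol and 457 were not named. The labels give no slide, scan date, litter or sex, and the number of arrays limits the precision (median SE 0.0723).

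Samples were grouped by the labelled diet. Powdered minus pelleted chow was fitted with limma (lmFit and eBayes, no covariates) on all probe sets with Benjamini-Hochberg adjustment, and pairs of members by an exact permutation test, run over every assignment of the arrays to the diets. The members and lists were chosen with earlier results of these data known. Lists were written by hand, and no set test was run. Dlx6os1, Ccnb1, Pcna, Hba-a1 and Ahsp of the lists were not matched to a probe set. Named were all members, the 4 largest called differences of each list, every gene of a count of 5 or fewer, the forebrain markers and the 5 probe sets closest to the members. Genes beyond these, and the flanking genes, were named with their values known. Some genes that the rule names are not reported here. Alternatives covered the test (the methods' t-test, Welch's test, an intensity trend, array weights, a fold limit), filters on dim probe sets, further normalization, the probe sets used, and the arrays. The fit was tested on simulated data. R 4.3.3, limma 3.58.1, Python 3.11.15, pandas 2.3.3, numpy 2.4.6 and matplotlib were used.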

Additional observations from a re-analysis of the deposited data

Results flagged for a closer look

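In groups of 5 arrays, Dixon's test at the 95% level asked whether the highest or lowest array stood apart from the others. It was applied to 77 genes in both diets, 154 groups in all, and set 6 arrays apart, where chance gives about 1 in 20 groups. Among the members this was Lhx6 in powdered chow replicate 111, at 9.32 with the next array at 9.61. Otx1 in the same array was at 8.38 (next 8.58). Top2a in powdered chow replicate 108 was at 9.81 (next 10.02). Slit1 in pelleted chow replicate 11 was at 10.04 (next 9.79) and Gbx2 in that array at 8.51 (next 8.20). Hoxb3 in pelleted chow replicate 05 was at 8.01 (next 7.86).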

How the results depend on the processing

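The members were fitted under 22 alternatives to the fit reported, Gsx2 under 21, since its mean lay below the median of the table and the filter there left it out. Dlx6 kept its call in all of them, and Dlx1, Gad1 and Gad2 lost theirs only against a fold change of 1.2. Dlx5 lost its call in 7 alternatives, among them the methods' t-test and Welch's test, and Nkx2-1 gained one in 10. No member called here changed direction. Members called higher numbered 1 and lower 0, both against a fold change of 1.2 and at the limits of the methods. Leaving out each array in turn, they numbered 3 to 5 higher and 1 lower. The related lists together had 4 genes higher and 11 lower against a fold change of 1.2, and 24 to 29 higher and 26 to 33 lower with an array left out. The unequal change ranged over 0.02 to 0.15 for Dlx1 minus Dlx2, -0.46 to -0.31 for Dlx5 minus Dlx6 and -0.72 to -0.64 for Gad1 minus Gad2 with an array left out. The correlation of Gad1 and Gad2 after each diet's mean was subtracted was 0.0061 by ranks and 0.36 without pelleted chow replicates 05 and 07. Further normalization kept the median of all probe sets between -0.03 and -0.01. No paired analysis was possible because the diets share no replicate numbers.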

Other observations

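Some markers of vessels, connective tissue and blood also differed between the diets, where 43.1% of all probe sets were called. Of 8 meninges and connective tissue markers 5 were higher, with the collagen gene Col3a1 at a difference of 0.75 (limma adjusted p = 1.14e-07), Foxc1 at 0.36, Pdgfra at 0.27, Dcn at 0.26 and Col1a2 at 0.24. Of 8 endothelial and pericyte markers 4 were higher, led by the vascular growth factor receptor Kdr (0.68), and Pdgfrb, a pericyte receptor, was lower (-0.39). Of 6 erythroid markers 2 were higher, among them Hbb-bh1, an embryonic globin gene (0.34), and 4 were not called. That is 33.3% called, under the share of all probe sets. The pelleted chow arrays were split, with a mean erythroid level of 6.28 to 6.32 in replicates 09, 11 and 15. It was 6.88 and 6.76 in replicates 05 and 07, and 6.73 to 6.95 on powdered chow. The cycling cell genes averaged 8.80 to 8.88 in replicates 09, 11 and 15, 9.19 in 05 and 07, and 9.27 to 9.47 on powdered chow. What part this split had in the diet differences was not tested.

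Of 8 choroid plexus markers 4 were lower (Otx2 -0.45, Kl -0.31, Aqp1 -0.30 and Msx1 -0.17) and Clic6 was higher (0.29). That is 50% and 12.5%, against 21.8% and 21.2% of all probe sets. Ttr (0.15), Lmx1a (0.07) and Folr1 (0.04) were not called. Microglia markers were split, with Csf1r (0.29) and C1qa (0.22) higher and Tyrobp (-0.41) and Cx3cr1 (-0.37) lower among 8.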
